A study of Mus musculus with 202 samples.

Results

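The nuclear-encoded subunits of the respiratory chain were followed across single E-cadherin-negative (Ecad-) and E-cadherin-positive (Ecad+) cells of a pancreatic ductal adenocarcinoma line from the mouse. The genes were taken by symbol from the table of 28987 genes: Nduf genes of complex I, Sdh of complex II, Uqcr of complex III, Cox4 to Cox8 of complex IV and Atp5 of complex V. The rule gave 86 rows, of which 37 belong to complex I, 4 to complex II, 8 to complex III, 18 to complex IV and 19 to complex V. Atp5s, Atp5sl and the pseudogene Atp5l-ps1 match the rule but encode no subunit, which left 83 subunit rows. Of these, 75 passed an expression floor, set at an average of 5 TPM (a relative unit, scaled so that all transcripts of a library sum to 1e+06) with detection, meaning any level over 0, in 10% of cells or more. Ndufa4 and Cox7a2l were kept where their symbols place them, although Ndufa4 protein is now assigned to complex IV and Cox7a2l protein joins complexes III and IV into supercomplexes.

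Both fractions came from the same line. It carries the KPC label, the name of an engineered mouse model of pancreatic cancer, and it derives from a liver metastasis of a male mouse. Cells of passages 4 to 6, grown in DMEM with 10% FBS, were stained for E-cadherin and sorted into a negative and a positive fraction, and neither fraction received an agent or further modification in the labels. Whether the line is 1 clone is not stated. Each library holds 1 cell, and there were 98 Ecad- and 104 Ecad+ libraries in 3 library sets. No separate cultures are named, so each fraction is 1 sample and no test was made. SDs describe the spread between cells.

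Oxidative phosphorylation passes electrons from NADH through complex I, or from succinate through complex II, to ubiquinone, then through complex III and cytochrome c to complex IV, which reduces oxygen. Complexes I, III and IV pump protons, and complex V, the ATP synthase, uses the proton gradient to make ATP. All subunits of complex II are encoded in the nucleus, whereas each of the other complexes combines nuclear subunits with 1 or more encoded in mitochondrial DNA. The transcription factors NRF1, the ETS factor GABP (NRF2 in older work) and YY1 are known to act on promoters of many nuclear subunit genes.

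Promoter sequence was read for 63 of the 75 subunit genes above the floor, from RefSeq on GRCm38.p6. In the 250 bases before the start site, both strands were searched for GCATGCGC (NRF1), CCGGAAG (ETS) and ATGGCGGC (YY1), and overlapping matches were each kept. NRF1 letters stood before 8 of the 63 genes (12.7%), against 5.87% of 5279 genes above the floor and 2.56% of 27025 genes in all. ETS letters stood before 12 genes (19.0%), against 19.2% of genes above the floor and 7.83% of all genes. YY1 letters stood before 1 gene, Ndufa7 (1.59%), against 2.92% of genes above the floor and 1.19% of all genes. Any of the 3 motifs was present for 19 genes (30.2%), against 26.0% of genes above the floor and 10.9% of all genes. A match is only a run of letters, and a window without one says nothing of the factor. The stretches below show 3 genes with a match (Cox6a1, Atp5l, Ndufb6) and 2 without one (Uqcr10, Cox7a1). Uqcr10 is shown as a gene with a high ratio between fractions and Cox7a1 as the gene with the lowest. Each was limited to bases outside annotated exons, and capitals mark the motif letters.
Cox6a1: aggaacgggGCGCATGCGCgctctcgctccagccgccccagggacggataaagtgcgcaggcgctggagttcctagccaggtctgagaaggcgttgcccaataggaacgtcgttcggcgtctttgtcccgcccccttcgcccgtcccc
Atp5l: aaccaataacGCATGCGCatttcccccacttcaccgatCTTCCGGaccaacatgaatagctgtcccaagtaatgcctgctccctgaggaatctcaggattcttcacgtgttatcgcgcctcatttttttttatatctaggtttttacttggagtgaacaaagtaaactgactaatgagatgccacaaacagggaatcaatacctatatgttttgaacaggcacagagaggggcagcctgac
Ndufb6: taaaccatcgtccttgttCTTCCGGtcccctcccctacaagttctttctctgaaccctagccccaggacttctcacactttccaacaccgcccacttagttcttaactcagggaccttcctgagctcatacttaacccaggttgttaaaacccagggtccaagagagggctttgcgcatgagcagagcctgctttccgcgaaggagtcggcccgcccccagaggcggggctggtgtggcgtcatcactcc
Uqcr10: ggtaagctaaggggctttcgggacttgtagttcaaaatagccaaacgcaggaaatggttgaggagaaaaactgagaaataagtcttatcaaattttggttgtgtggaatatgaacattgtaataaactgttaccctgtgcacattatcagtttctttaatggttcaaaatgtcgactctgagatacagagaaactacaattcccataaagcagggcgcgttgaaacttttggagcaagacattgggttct
Cox7a1: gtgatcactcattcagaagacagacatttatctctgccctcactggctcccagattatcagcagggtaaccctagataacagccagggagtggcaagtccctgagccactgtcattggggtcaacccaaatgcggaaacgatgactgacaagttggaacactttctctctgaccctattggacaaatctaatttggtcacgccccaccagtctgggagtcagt

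These stretches lie on GRCm38 at chr5:115348982-115349129 for Cox6a1, chr9:44920752-44920992 for Atp5l, chr4:40279422-40279671 for Ndufb6 and chr11:4704345-4704594 for Uqcr10, all on the minus strand, and at chr7:30183921-30184143 on the plus strand for Cox7a1. In Cox6a1, 2 NRF1 matches on opposite strands overlap, from 162 to 153 bases before the start site, and ETS letters in its searched window fall outside the printed stretch. In Atp5l the NRF1 letters lie 240 to 233 bases before the start and the ETS letters 212 to 206 bases before it, and in Ndufb6 the ETS letters lie 232 to 226 bases before it. Ratios between fractions, defined further on, hardly differed with NRF1 or ETS letters. The median was 0.12 for the 8 genes with NRF1 letters and 0.11 for the 55 without. It was 0.10 for the 12 genes with ETS letters and 0.11 for the 51 without. The 1 gene with YY1 letters, Ndufa7, stood at 0.72, against a median of 0.10 for the 62 without.

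Some properties of the libraries touch every value. Over all genes, 5 library pairs had correlations of 0.984 to 0.994, and each pair was averaged, so that 97 Ecad- and 100 Ecad+ cells were compared. Ecad- cells had a median of 8694 genes above 0 and Ecad+ cells 10338. The share of TPM from mitochondrially encoded genes, called the mitochondrial share, had a median of 8.78% in the Ecad- fraction and 30.0% in the Ecad+ fraction. Cells with a share under 1%, called low-share, numbered 40 in the Ecad- fraction and 1 in the Ecad+ fraction. In sets 1, 2 and 3 they came to 6 of 33, 12 of 32 and 22 of 33 Ecad- libraries. Ductal epithelial markers marked both fractions: the summed TPM of 10 markers ranged from 5.37 to 12553 (median 1869.7) in Ecad- cells and from 1022 to 12555 (median 4511) in Ecad+ cells. All 8 markers above the floor were lower in Ecad- cells. Cdh1, which encodes E-cadherin, averaged 16.1 TPM in Ecad- cells, against 37.9 TPM in Ecad+ cells. Markers of other cells were scarce in the median cell, with summed medians in Ecad- and Ecad+ cells of 0.103 and 0.118 TPM for 10 fibroblast, 0.574 and 0.413 TPM for 9 leukocyte, 0.903 and 0.778 TPM for 10 endothelial and 0 and 0.706 TPM for 10 hepatocyte markers. Single cells held more: the highest sums in Ecad- and Ecad+ cells were 27.4 and 5.03 TPM for fibroblast, 370.1 and 126 TPM for leukocyte, 104 and 13.2 TPM for endothelial and 643 and 218 TPM for hepatocyte markers. Of these other markers, just Cd68 (30.0 TPM in Ecad- cells, against 6.35 TPM in Ecad+ cells) and Ttr (10.6 TPM in Ecad- cells, 7.74 TPM in Ecad+ cells) passed the floor, and Ptprc was 0 in all cells. The part of these features in the results below was not tested, and values without low-share cells are given as a description. Leaving those cells out also shifts the mix of library sets. In sets 1, 2 and 3 it leaves 27, 20 and 11 Ecad- libraries and 27, 39 and 37 Ecad+ libraries. The removal of cells and the shift of sets were not told apart.

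The subunit genes were among the more abundant messages in both fractions. Their mean levels had a median of 322 TPM in Ecad- cells and 236 TPM in Ecad+ cells. Complex III and IV genes had the higher medians (632 and 626 TPM in Ecad- cells, 402 and 430.1 TPM in Ecad+ cells). Complex I and II genes had the lower ones (203 and 259 TPM in Ecad- cells, 184 and 178 TPM in Ecad+ cells), and complex V stood between (414 TPM in Ecad- cells, 286 TPM in Ecad+ cells). Detection was near complete: the median cell had 73 of the 75 genes above 0 in the Ecad- fraction and 74.5 in the Ecad+ fraction. The lowest cell had 48 genes in the Ecad- and 73 in the Ecad+ fraction, and 28 genes were above 0 in every Ecad- cell against 68 in every Ecad+ cell.

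**Figure D1:**
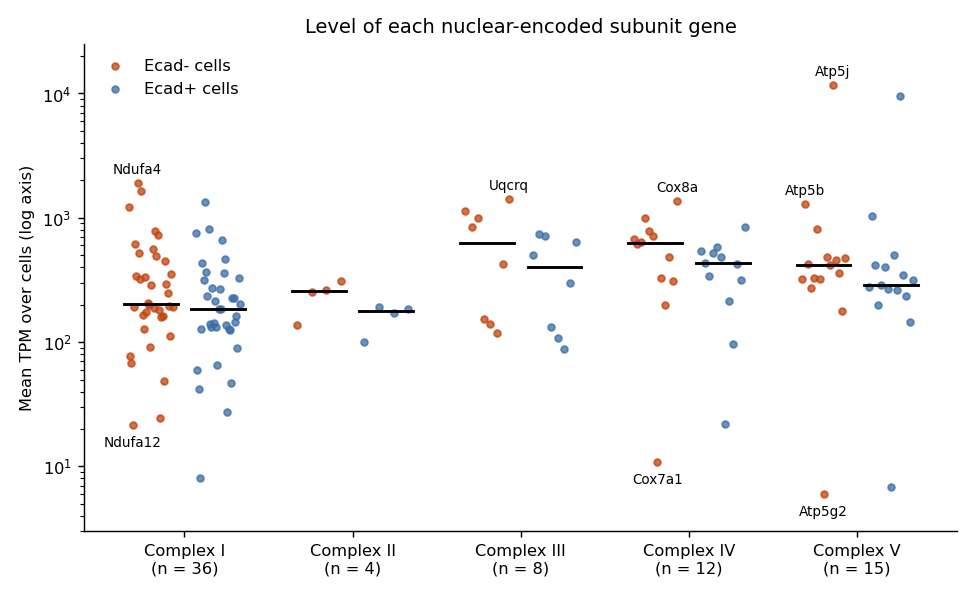
Mean TPM over cells (log axis) of each of the 75 subunit genes above the floor, by complex, with Ecad- cells (red) left of Ecad+ cells (blue) and black lines at the medians of the genes. Atp5j stands far above all others in both fractions, and Atp5g2, Cox7a1 and Ndufa12 are among the lowest.

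Atp5j, which encodes coupling factor 6 of the ATP synthase stalk, stood apart from every other member. It ranged from 5.12 to 33866 TPM (median 11424) in Ecad- cells and from 3201 to 19398 TPM (median 9099) in Ecad+ cells. Ecad- cells spread further to both sides and the fractions overlapped. Its mean stood 9.02-fold over that of Atp5b, the catalytic beta subunit, in the Ecad- fraction and 9.17-fold in the Ecad+ fraction. Atp5j made up 25.9% of the summed mean TPM of the 86 rows in Ecad- cells and 29.2% in Ecad+ cells. On chromosome 16 it shares 701 bases (84834925 to 84835625, mm10) with Gabpa on the opposite strand, and libraries without strand cannot tell such reads apart. Gabpa itself averaged 36.2 TPM in Ecad- cells, against 16.8 TPM in Ecad+ cells.

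The fractions were compared by the log2 of the Ecad- mean over the Ecad+ mean, with 1 TPM added to each. The median of this ratio over the 7227 genes above the floor was 0.31, and it was subtracted, so all ratios below are relative to that median. The subunit genes stood slightly above it, with a median of 0.12 (0.15, 0.22 and 0.09 in library sets 1, 2 and 3). Of the 75 genes, 49 exceeded the all-gene median and 26 did not. Their spread was narrow: the quartiles were -0.07 and 0.32, against -0.42 and 0.41 for all genes. A gene was called where its ratio was at least 0.5 in size and of 1 sign in all 3 sets. By this rule 10 of 75 genes were higher in Ecad- cells (13.3%), against 18.7% of all genes, and 1 was lower (1.33%), against 19.2% of all genes. The order of the higher shares depended on the setting: it was 45.3% of members against 22% of all genes with means of log2 values, 38.7% against 33.5% without centring and 29.6% against 15.5% with no floor. The 10 were scattered over the genome (mm10), with Ndufa12 at chr10:94198720-94221443, Ndufb6 at chr4:40270591-40279421, Ndufa7 at chr17:33824572-33838317, Ndufs5 at chr4:123712710-123718202, Uqcr10 at chr11:4701973-4704342, Uqcrq at chr11:53427922-53430831, Cox5b at chr1:36691449-36693681, Cox6a1 at chr5:115345642-115348981, Cox7a2l at chr17:83501918-83517330 and Atp5f1 at chr3:105942698-105960099. Cox7a1, called lower, lies at chr7:30184144-30186078. Without low-share cells the median was 0.04, with 2 genes higher (2.67%; 10.9% of all genes) and 2 lower (13.4% of all genes).

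**Figure D2:**
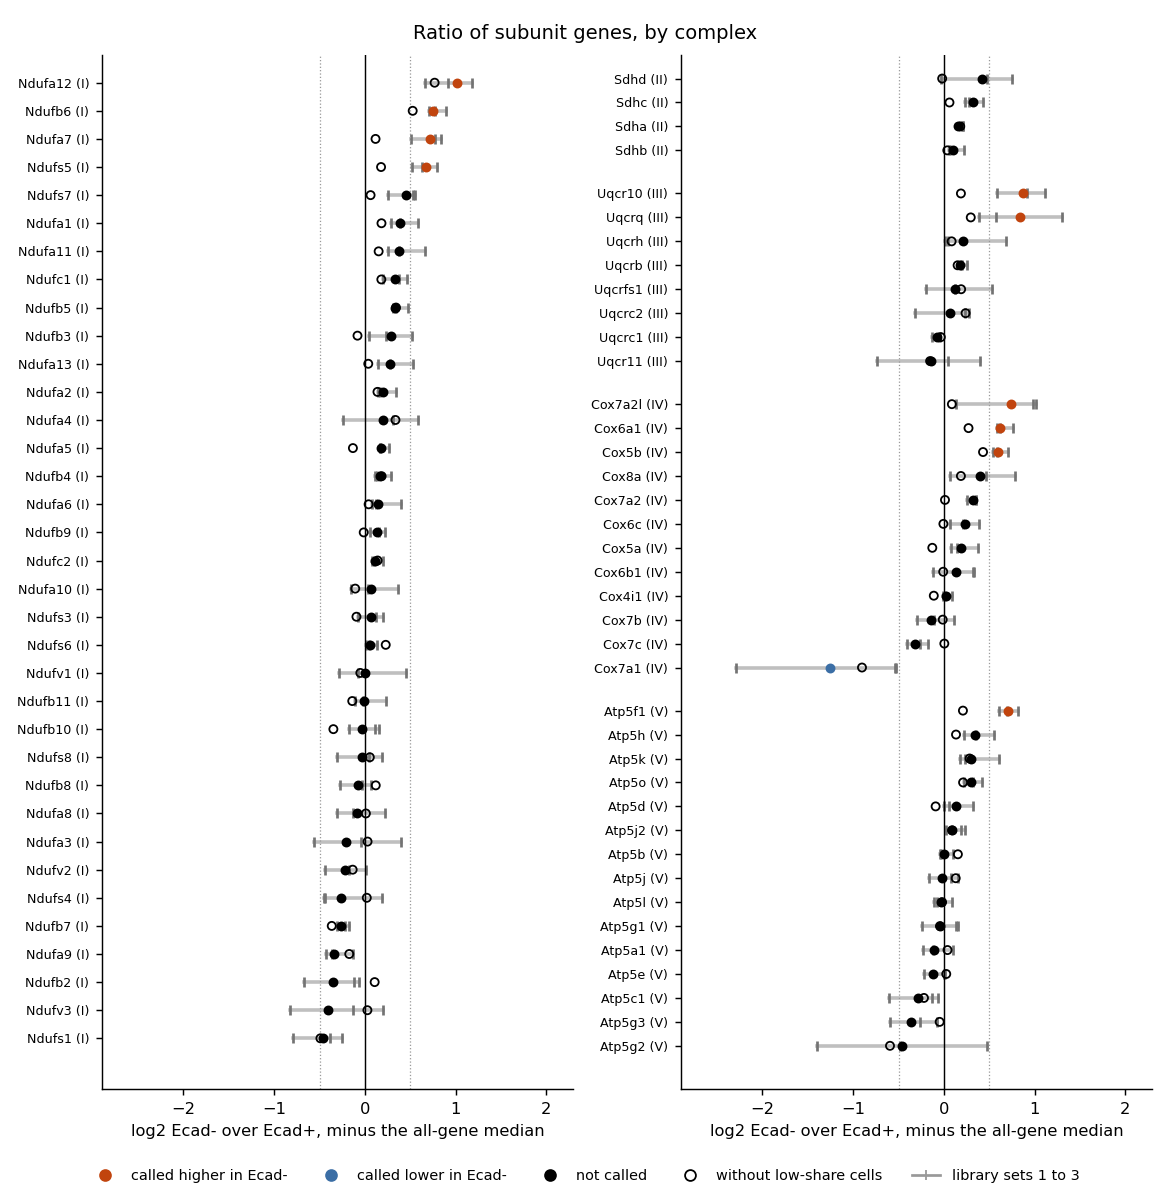
Ratio of subunit genes (log2 Ecad- over Ecad+, minus the all-gene median; 1 gene of complex I is not shown), with complex I in the left panel and complexes II to V in the right. Filled dots are all cells (red called higher, blue called lower in Ecad- cells), open circles leave out low-share cells, and grey bars join the 3 library sets; the called genes have open circles nearer 0 than their dots, and of those called higher, Ndufa12 and Ndufb6 keep open circles beyond 0.5.

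Complex I genes had a median ratio of 0.09 (0.17, 0.20 and 0.11 in the sets), with 23 of 36 above the all-gene median. Of these 36 genes, 4 were called higher (11.1%) and none lower, against 18.7% and 19.2% of all genes. Core subunits of the peripheral arm, which hold the flavin and the iron-sulfur clusters, lay on both sides of 0. Ndufv1, which binds NADH, ranged from 0 to 380.4 TPM (median 100.0) in Ecad- cells and from 23.2 to 207 TPM (median 89.2) in Ecad+ cells, a ratio of 0.0030. Ndufs1, the largest core subunit, ranged from 0 to 86.2 TPM (median 18.4) in Ecad- cells and from 0 to 80.4 TPM (median 23.5) in Ecad+ cells. Its ratio of -0.46 was the lowest of complex I and negative in each set, at -0.38, -0.79 and -0.25, but did not reach 0.5 in size. Ndufs7, next to the quinone site, stood at 0.46 and at 0.06 without low-share cells, and Ndufs3 (0.07), Ndufs8 (-0.04) and Ndufv2 (-0.22) stood nearer 0.

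The complex I genes called higher all encode accessory subunits. Ndufa12 was scarce, with a range from 0 to 181 TPM (median 2.11) in Ecad- cells and from 0 to 64.4 TPM (median 1.65) in Ecad+ cells. It was above 0 in 81 of 97 Ecad- cells (83.5%, exact Clopper-Pearson 95% interval 74.6% to 90.3%). In the Ecad+ fraction it was above 0 in 91 of 100 cells (83.6% to 95.8%). These intervals overlap but cover counting error between cells only, and each fraction is 1 sample. For Ndufa12 the highest Ecad- cells lay above all Ecad+ cells. Its means were 21.4 ± 38.1 TPM in Ecad- cells and 8.00 ± 14.0 TPM in Ecad+ cells (SD, n = 97 and 100), a ratio of 1.01 with 0.67, 0.91 and 1.18 in the sets. Ndufb6, a subunit of the membrane arm, ranged from 46.7 to 2705 TPM (median 400.1) in Ecad- cells and from 46.2 to 878 TPM (median 233) in Ecad+ cells. The lowest cells of the fractions were alike and the highest Ecad- cells lay above all Ecad+ cells. Its ratio was 0.75, and 0.71, 0.77 and 0.89 in the sets.

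Of the 10 genes called higher, Ndufa12 and Ndufb6 stayed called without low-share cells, at 0.77 and 0.53. Ndufa7 and Ndufs5 did not. Ndufa7 ranged from 0 to 7921 TPM (median 1367) in Ecad- cells and from 209.9 to 2139 TPM (median 763) in Ecad+ cells, a ratio of 0.72 that was 0.12 without low-share cells. Ndufs5, on the intermembrane side of the membrane arm, had medians of 376 TPM in Ecad- cells and 204 TPM in Ecad+ cells and a ratio of 0.68, or 0.18 without low-share cells. Ndufa4, the most abundant Nduf gene, ranged from 359 to 4336 TPM (median 1710.3) in Ecad- cells and from 516 to 2981 TPM (median 1224) in Ecad+ cells. The sets differed in sign for Ndufa4, at 0.31, 0.58 and -0.24 around a ratio of 0.20.

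All 4 complex II genes lay above the all-gene median, with a median of 0.24. None was called, where 18.7% of all genes were higher and 19.2% lower. Sdha, the flavoprotein that oxidises succinate, ranged from 0 to 527 TPM (median 111) in Ecad- cells and from 0 to 339 TPM (median 93.4) in Ecad+ cells. The fractions overlapped nearly throughout and the ratio was 0.16. Sdhb, the iron-sulfur subunit, stood at 0.10, and the membrane anchors Sdhc and Sdhd at 0.32 and 0.42. Sdhd was at -0.03 in set 1 and at -0.02 without low-share cells, where the complex as a whole had a median of 0.05.

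Complex III genes had a median ratio of 0.15, with 6 of 8 above the all-gene median. The 2 called higher (25%, against 18.7% of all genes) were Uqcr10 and Uqcrq, both small subunits of the membrane part. Uqcr10 ranged from 26.6 to 5576 TPM (median 689) in Ecad- cells and from 162 to 1058 TPM (median 497) in Ecad+ cells. Ecad- cells thus reached both lower and higher than Ecad+ cells. Its means were 1143 ± 1066 TPM in Ecad- cells and 506 ± 204 TPM in Ecad+ cells (SD, n = 97 and 100), a ratio of 0.87 with 0.58, 1.12 and 0.92 in the sets. Uqcrq, the most abundant gene of the complex in Ecad- cells, ranged from 210.1 to 6782 TPM (median 1063) in Ecad- cells and from 183 to 2572 TPM (median 614) in Ecad+ cells, a ratio of 0.84. Without low-share cells Uqcr10 stood at 0.19 and Uqcrq at 0.30. The core protein gene Uqcrc1 (-0.07), the core protein gene Uqcrc2 (0.07) and Uqcrfs1, the Rieske iron-sulfur protein (0.12), stayed near 0, and Uqcr11 was lowest at -0.14 with -0.73 in set 3.

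Complex IV held the widest contrast among members, with ratios from -1.26 to 0.74 and a median of 0.21. Of its 12 genes, 3 were called higher (25%) and 1 lower (8.33%), against 18.7% and 19.2% of all genes. Cox7a2l ranged from 0 to 879.8 TPM (median 143) in Ecad- cells and from 20.4 to 329 TPM (median 88.9) in Ecad+ cells. Its ratio of 0.74 came from sets 2 and 3 (1.01 and 0.99), against 0.13 in set 1, and it was 0.09 without low-share cells. Cox6a1, the widely expressed isoform of subunit VIa, ranged from 88.0 to 5779 TPM (median 789) in Ecad- cells and from 135 to 1192 TPM (median 505) in Ecad+ cells. Its ratio was 0.62, and 0.62, 0.76 and 0.58 in the sets. Cox5b, a zinc-binding subunit, ranged from 69.2 to 2501 TPM (median 524) in Ecad- cells and from 95.3 to 814 TPM (median 341) in Ecad+ cells, a ratio of 0.60. Without low-share cells Cox6a1 stood at 0.27 and Cox5b at 0.43, and the median of the complex was 4.2e-05.

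Cox7a1, known as the heart and skeletal muscle isoform of subunit VIIa, was the member called lower. It ranged from 0 to 123 TPM (median 0) in Ecad- cells and from 0 to 289 TPM (median 10.7) in Ecad+ cells. It was above 0 in 35 of 97 Ecad- cells (36.1%, interval 26.6% to 46.5%) and in 74 of 100 Ecad+ cells (64.3% to 82.3%). Its means were 10.8 ± 20.6 TPM in Ecad- cells, against 21.9 ± 38.1 TPM in Ecad+ cells (SD, n = 97 and 100), a ratio of -1.26 with -0.53, -0.54 and -2.29 in the sets and -0.90 without low-share cells. Fewer genes per cell were above 0 in the Ecad- fraction in general, and the intervals cover counting error between cells only. Its partner Cox7a2, the isoform of other tissues, averaged 330.4 TPM in Ecad- cells, against 214 TPM in Ecad+ cells, a ratio of 0.32.

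The other tissue isoforms of complex IV were rare. Cox6a2, the muscle isoform of subunit VIa, was above 0 in 5 Ecad- cells, with a mean of 6.59 TPM over the fraction and up to 320.6 TPM in 1 cell, and was listed at 0 in all Ecad+ cells. Cox4i2, Cox6b2 and Cox7b2 were above 0 in at most 1 Ecad- cell and 3 Ecad+ cells each. Cox8b, a muscle isoform, and Cox8c, a testis isoform, were at 0 in all 197 cells, which allows a share of up to 1.52% of cells with a value above 0. Their common counterparts were abundant, with Cox8a at 1373 TPM in Ecad- cells, against 840.1 TPM in Ecad+ cells, and Cox4i1 at 680.0 TPM in Ecad- cells, against 542 TPM in Ecad+ cells. Of the Nduf and Atp5 rows, Ndufa4l2 and Atp5l2 also missed the floor, which together with Cox6a2 makes 8 subunit rows.

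Complex V genes had a median of -0.02, with 7 of 15 above the all-gene median. Only 1 was called higher (6.67%, against 18.7% of all genes). The catalytic core did not move by 0.5: Atp5b stood at 0.01, Atp5a1 (the alpha subunit) at -0.10 and Atp5c1 (the gamma shaft) at -0.28. Atp5b ranged from 198 to 3872 TPM (median 1079) in Ecad- cells and from 256 to 2299.5 TPM (median 1045) in Ecad+ cells, so the median cells were nearly level. Atp5f1, which encodes the b subunit of the peripheral stalk, ranged from 11.0 to 2810.4 TPM (median 659) in Ecad- cells and from 175 to 825 TPM (median 386) in Ecad+ cells. Its ratio was 0.71, with 0.60, 0.70 and 0.82 in the sets and 0.21 without low-share cells. Atp5h, the d subunit of the same stalk, stood at 0.35 and Atp5j at -0.02.

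The 3 genes of the membrane ring, Atp5g1, Atp5g2 and Atp5g3, encode the same mature protein, so that reads can be divided among them with error. Atp5g3 averaged 486 TPM in Ecad- cells, against 503 TPM in Ecad+ cells (ratio -0.36), and Atp5g1 averaged 322 TPM in Ecad- cells, against 268 TPM in Ecad+ cells (-0.04). Atp5g2 was rare, at 5.98 TPM in Ecad- cells and 6.78 TPM in Ecad+ cells, with a ratio of -0.46 and set values of -0.49, -1.40 and 0.48. It was called lower without low-share cells, at -0.59. Processed pseudogenes are known for many subunit genes, and the deposited values do not show how reads were divided among such copies.

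The mitochondrially encoded partners behaved otherwise in the same cells. All 13 were called lower in Ecad- cells, against 19.2% of all genes, with a median ratio of -1.41 against 0.12 for the nuclear subunits. These 13 genes make up the mitochondrial share, so their ratios restate its lower median in Ecad- cells (8.78%, against 30.0% in Ecad+ cells). By complex the medians were -1.38 for 7 genes of complex I, -1.76 for the 1 gene of complex III (mt-Cytb), -1.53 for 3 genes of complex IV and -1.37 for 2 genes of complex V. The nuclear medians of the same complexes were 0.09, 0.15, 0.21 and -0.02. The most abundant, mt-Atp8 of complex V, averaged 116859 TPM in Ecad- cells, against 252280 TPM in Ecad+ cells. Of the nuclear subunits, just Cox7a1 lay within the range of the mitochondrial genes, which ran from -1.76 (mt-Cytb) to -0.93 (mt-Nd3). Without low-share cells the medians were -0.50 for the mitochondrial and 0.04 for the nuclear genes, and leaving cells out by this share raises the mitochondrial ratio by construction.

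**Figure D3:**
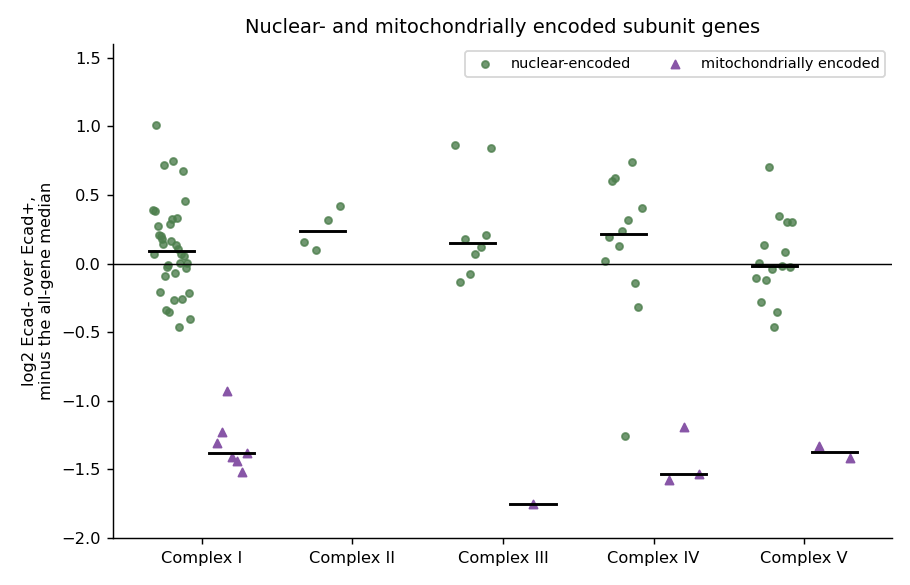
Ratios (log2 Ecad- over Ecad+, minus the all-gene median) of nuclear-encoded (green dots) and mitochondrially encoded (purple triangles) subunit genes, by complex, with black lines at the medians. Complex II has nuclear genes alone, and in every other complex the mitochondrially encoded median is -1.37 or lower while the nuclear median lies between -0.02 and 0.21.

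TPM is relative within a cell, so the summed subunit level was taken as a percent of the TPM outside mitochondrially encoded genes. Over the 86 rows this summed share ranged from 2.25% to 8.38% (median 5.51%) in Ecad- cells and from 3.45% to 7.84% (median 4.86%) in Ecad+ cells. The Ecad- cells were spread more widely, to both sides of the Ecad+ cells, with an SD of 1.32 points in Ecad- cells and 0.739 points in Ecad+ cells. The medians differed by 0.64 points (0.59, 0.89 and 0.10 in sets 1, 2 and 3), and by 0.40 points without low-share cells. Without Atp5j, an alternative chosen after seeing the data, the medians were 3.93% in Ecad- cells and 3.38% in Ecad+ cells. They differed by 0.55 points (0.41, 0.77 and 0.78 in sets 1, 2 and 3), and by 0.26 points without low-share cells. The small difference in set 3 was thus seen only with Atp5j in the sum. By complex, the Ecad- and Ecad+ medians were 1.67% and 1.43% for complex I, 0.11% and 0.0985% for complex II, 0.574% and 0.479% for complex III, 0.827% and 0.720% for complex IV and 0.747% and 0.708% for complex V without Atp5j.

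**Figure D4:**
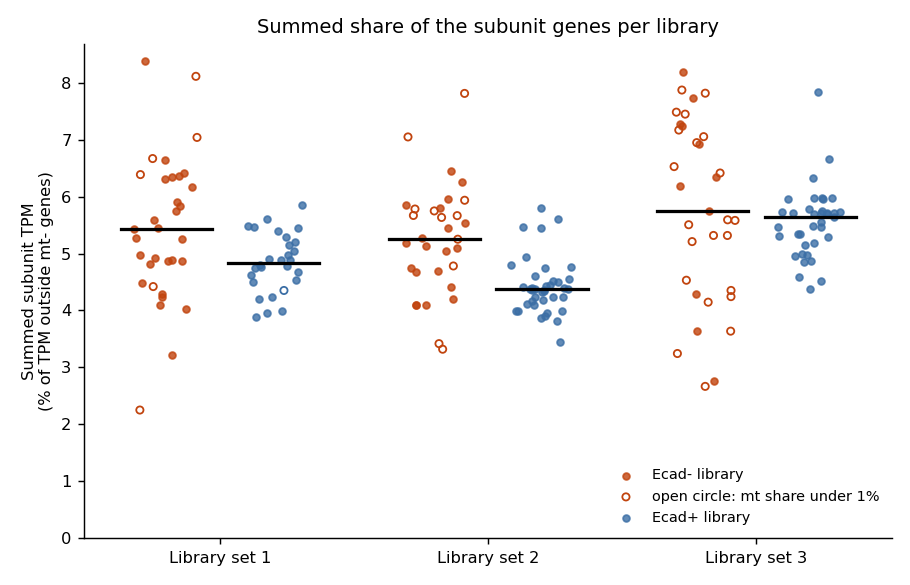
Summed subunit TPM as a percent of the TPM outside mitochondrially encoded genes, 1 point per library, in library sets 1 to 3, with Ecad- (red) left of Ecad+ (blue), black lines at the medians, and open circles for libraries with a mitochondrial share under 1%. Ecad- medians lie above Ecad+ medians in sets 1 and 2 and nearly level in set 3 (5.75% and 5.65%), where the open circles run from 2.66% to 7.88%. The sum includes Atp5j, without which the medians of set 3 differed by 0.78 points.

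Spread between cells was larger in the Ecad- fraction for single genes as well. The coefficient of variation of all 75 genes was higher in Ecad- than in Ecad+ cells, with medians of 0.622 in Ecad- cells and 0.355 in Ecad+ cells. The same held for 96.0% of 7214 nuclear genes above the floor, whose medians were 1.23 in Ecad- cells and 0.791 in Ecad+ cells. Without low-share cells it held for 73 of the 75 genes and for 94.5% of the 7214. The subunit genes thus varied less than the median gene in each fraction, but they were among the more abundant messages and genes were not matched for level. The direction between fractions was that of nearly all genes.

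Across cells, the relation of the summed subunit share to the mitochondrial share differed between library sets and complexes. Within Ecad- cells Spearman's rho was -0.04 and Pearson's r 0.02 (n = 97), and within Ecad+ cells they were -0.22 and -0.21 (n = 100), as descriptions over cells that share a fraction and library sets. Within sets 1, 2 and 3 rho was -0.07, -0.34 and 0.33 in Ecad- libraries, and 0.19, 0.15 and -0.0043 in Ecad+ libraries, so the pooled Ecad+ value was not seen within any set. Over Ecad- cells with a mitochondrial share of under 1%, 1 to 10%, 10 to 20%, 20 to 30%, 30 to 40% and 40% or more, the median summed share was 5.65%, 4.29%, 5.27%, 5.60%, 5.44% and 5.44%. The same bins of Ecad+ cells, of which the first held 1 cell and the second 2 cells, had 4.35%, 4.16%, 5.53%, 4.97%, 4.76% and 4.46%. Without Atp5j, rho was -0.20 in Ecad- and -0.24 in Ecad+ cells, with -0.23, -0.65 and 0.20 in Ecad- libraries of sets 1, 2 and 3. By complex, rho in Ecad- cells was -0.12 for complex I, -0.32 for II, -0.37 for III, -0.23 for IV and -0.03 for V without Atp5j. Over the 57 Ecad- cells that were not low-share, these values were 0.15, -0.09, 0.01, 0.13 and 0.02. In set 2 the Ecad- libraries had -0.60 for complex III and -0.65 for complex IV, against 0.05 and 0.26 in set 3. In Ecad+ cells rho was -0.15 for complex I, -0.16 for II, -0.01 for III and -0.34 for both IV and V without Atp5j. Within sets 1, 2 and 3 complex IV had 0.15, -0.26 and 0.16 and complex V without Atp5j -0.13, -0.50 and -0.15. Complex I had 0.21, 0.13 and 0.08, opposite to its pooled sign. Complex II was under 0 in every set, with -0.39, -0.36 and -0.11 in Ecad+ libraries and -0.44, -0.31 and -0.14 in Ecad- libraries. The remaining complexes of each fraction differed in sign between sets. When the sum was instead taken as a percent of all TPM, rho was -0.62 in Ecad- and -0.84 in Ecad+ cells, where the mitochondrial TPM is part of the denominator.

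**Figure D5:**
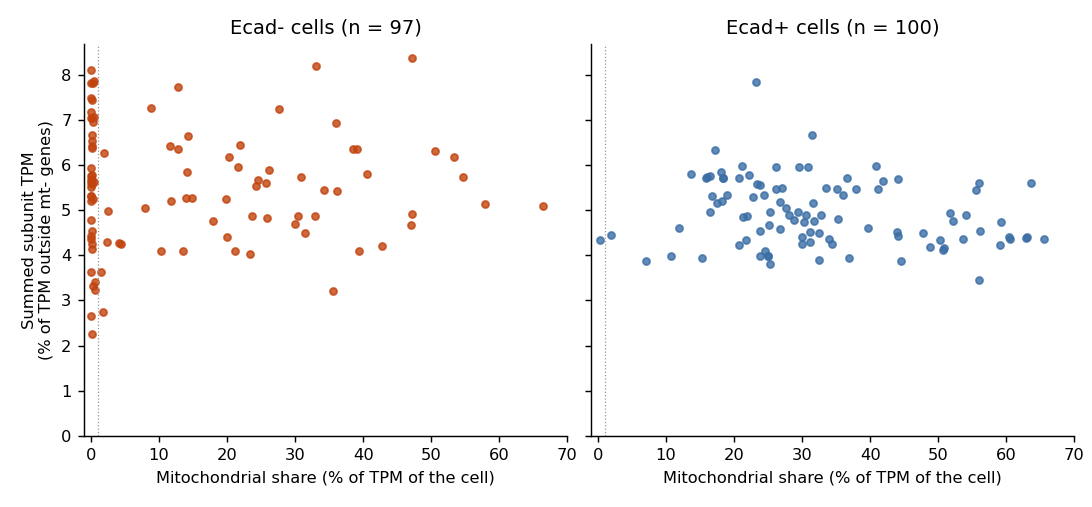
Summed subunit TPM (percent of the TPM outside mitochondrially encoded genes) against the mitochondrial share of TPM, 1 point per cell, for 97 Ecad- cells (left) and 100 Ecad+ cells (right), with a dotted line at a share of 1%. The 40 Ecad- cells left of the line span 2.25% to 8.12%, nearly the whole range of the fraction.

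The pairs of libraries taken as 1 cell give a further view. In the Ecad- pair the mitochondrial share was 11.4% in one library and 37.5% in the other, while the summed subunit share was 5.83% and 5.45%. In 1 Ecad+ pair the mitochondrial share was 22.5% and 39.9% and the summed share 4.37% and 4.205%. In the other 3 Ecad+ pairs the mitochondrial shares were 30.7% and 34.7%, 19.3% and 27.3%, and 17.6% and 31.1%. Their summed shares were 4.79% and 4.98%, 5.69% and 5.45%, and 5.30% and 5.40%, in the same order. The direction thus differed between pairs.

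Gene by gene, with cells rescaled without mitochondrially encoded genes, rho with the mitochondrial share had a median of -0.04 over the 75 subunits in Ecad- cells and -0.16 in Ecad+ cells. Over 7214 nuclear genes these medians were 0.0042 in Ecad- cells and 0.00083 in Ecad+ cells. In Ecad- cells the extremes were Cox7a2l (-0.62), Uqcrq (-0.58) and Ndufa7 (-0.52) at one end, and Ndufb2 (0.49), Ndufb8 (0.44) and Atp5g3 (0.43) at the other. In Ecad+ cells Ndufb2 stood at -0.34 and Ndufb8 at -0.28, opposite in sign to their Ecad- values. Ndufb6, with -0.09 in Ecad- cells, had the highest rho of all members in Ecad+ cells, at 0.47. All 12 complex IV genes had a rho under 0 in Ecad+ cells (median -0.23), and 8 of 12 in Ecad- cells (median -0.12). Of the 75 members, 57 were under 0 in Ecad+ and 42 in Ecad- cells, and of 7214 nuclear genes, 3595 and 3548. Each rho pools the library sets. Within sets 1, 2 and 3 the summed share of complex IV had a rho of 0.15, -0.26 and 0.16 in Ecad+ libraries. These values are descriptions over cells of 1 sample each.

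Low-share Ecad- cells were therefore set against the other Ecad- cells on that rescaled level. The subunits had a median ratio of 0.16 relative to all genes (0.31, 0.15 and -0.19 in the sets), and 14 of 75 were called higher (18.7%, against 17.7% of all genes) and 6 lower (8.0%, against 18.4%). Uqcr10, Cox7a2l and Atp5f1, which were called higher in the Ecad- fraction, were also called here. Uqcr10 averaged 1948 TPM on this scale in 40 low-share Ecad- cells and 870.3 in the 57 other Ecad- cells, a ratio of 1.18, and 764 in Ecad+ cells. Cox7a2l averaged 339 in low-share and 149 in other Ecad- cells (1.21), and 144 in Ecad+ cells. Atp5f1 averaged 1309 in low-share and 689.9 in other Ecad- cells (0.95), and 635 in Ecad+ cells. For these genes the other Ecad- cells lay nearer to Ecad+ cells than to low-share cells, which restates their lower ratios without low-share cells. Cox5b, called higher in the Ecad- fraction too, averaged 868 in low-share and 726 in other Ecad- cells, and 508 in Ecad+ cells. Its other Ecad- cells lay nearer to low-share cells.

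Like Uqcr10, Cox7a2l and Atp5f1, the genes Ndufa7 (1.07), Uqcrq (1.07), Ndufs5 (0.91), Ndufs7 (0.79) and Sdhd (0.78) were called higher in low-share than in other Ecad- cells. Ndufb2, a small membrane arm subunit, averaged 148 in low-share and 356 in other Ecad- cells, a ratio of -1.24 with -2.74, -1.46 and -1.26 in the sets, and 318 in Ecad+ cells. Ndufv3 stood at -1.12, Cox7c at -0.82, Atp5g3 at -0.81, Ndufs4 at -0.68 and Ndufa3 at -0.58. Members of 1 complex thus lay on both sides. Complex I held 5 genes called higher (13.9%) and 4 called lower (11.1%), and complex IV 4 (33.3%) and 1 (8.33%). Over all genes 17.7% were higher and 18.4% lower. Ndufb6, called higher in Ecad- cells with and without low-share cells, averaged 777 in low-share cells, 606 in other Ecad- cells and 456 in Ecad+ cells.

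Levels of different subunits followed each other over cells weakly. The median rho over 2775 pairs of members was 0.13 in Ecad- cells and 0.10 in Ecad+ cells, while over all nuclear genes above the floor it was 0.05 in Ecad- cells and 0.02 in Ecad+ cells. Pairs within 1 complex had 0.14 in Ecad- cells and 0.11 in Ecad+ cells, and pairs across complexes 0.12 in Ecad- cells and 0.09 in Ecad+ cells, so that complexes did not stand out as blocks. For the 1549 genes that averaged 100 TPM or more the medians were 0.04 in Ecad- cells and 0.01 in Ecad+ cells. Subunit messages are short, with a median coding transcript of 659 nucleotides against 1746 for all genes above the floor. The 1643 genes under 1000 nucleotides had a median ratio of 0.02, and the 56 subunits under 1000 nucleotides 0.15.

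Other genes of the pathway that the symbol rule left out did not move as 1 group, and their counts stand beside 18.7% higher and 19.2% lower over all genes. Of 5 further subunits and regulators, the ATP synthase membrane subunit gene Usmg5 was called higher (3017 TPM in Ecad- cells, against 1669.7 TPM in Ecad+ cells, ratio 0.55) and Atpif1, an inhibitor of the ATP synthase, lower (595 TPM in Ecad- cells, against 753 TPM in Ecad+ cells, -0.64). Among 12 complex I assembly factors, 2 were higher, Tmem126b (1.33) and Timmdc1 (0.98), and 1 lower, Acad9 (-0.66). Of 21 complex IV assembly factors, 4 were higher and 4 lower. Cox17, a copper chaperone, averaged 1558 TPM in Ecad- cells, against 586 TPM in Ecad+ cells (1.10), whereas Cmc2 averaged 37.1 TPM in Ecad- cells, against 63.6 TPM in Ecad+ cells (-1.07). In the smaller lists, 2 of 3 complex II factors (Sdhaf1 and Acn9), none of 3 complex III factors and 1 of 2 complex V factors (Atpaf2) were called, all of them higher.

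Electron carriers and nucleotide exchangers had a median of -0.25, with 2 of 19 higher and 6 lower, where all genes had 18.7% higher and 19.2% lower. Cycs, cytochrome c, stood at 0.52, while the ADP/ATP carriers Slc25a4 and Slc25a5 stood at -0.94 and -0.78. Slc25a5 averaged 1095 TPM in Ecad- cells, against 1523 TPM in Ecad+ cells. Of 16 enzymes of the citric acid cycle and the pyruvate dehydrogenase complex, 1 was higher, Pdhb (169 TPM in Ecad- cells, against 51.0 TPM in Ecad+ cells, 1.40), and 5 were lower, among them Suclg2 (-0.91), Idh3g (-0.65) and Fh1 (-0.63), with a list median of -0.23 and the same shares over all genes. Of 7 transcriptional regulators above the floor, Gabpa was called higher (0.76), with the strand overlap to Atp5j noted above, while Nrf1 stood at -0.30, Yy1 at 0.33 and Tfam, which drives transcription of mitochondrial DNA, at -0.19.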

How the data were processed

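Single cells were captured on a Fluidigm C1, amplified with SMARTer and made into Nextera XT libraries, per the labels' protocols; there are no molecular identifiers and no strand. Per the submitters' processing notes, kallisto (no version named), FastQC 0.11.5 and the build mm10 were used. How transcripts were indexed and summed to genes is not given in the sources used here. Deposited was 1 table of log2 values made by the authors, read as log2(TPM + 1) because back-transformed libraries summed to 933711 to 987134. TPM keeps no read depth, so counting error per level is unknown.

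Groups came from the labels, and library sets from a name suffix of unstated meaning. Library pairs with a Pearson correlation over 0.97 were averaged. Levels are arithmetic means of TPM with 1 TPM added before the log2, which understates changes of low genes. Coordinates came from GENCODE M21 (all 86 rows matched by identifier). Named genes are core subunits, isoform pairs, and per complex the highest level and the 2 highest and 2 lowest ratios; further names, such as the called genes and the promoters shown, were chosen after values were seen. The members and lists were chosen with earlier results of these data known. The values of 1 complex I gene are not reported here singly. The ratio was tested on simulated data. Python 3.11.15, numpy 2.4.6, pandas 2.3.3, scipy 1.17.1 and matplotlib 3.10.9 were used. Alternatives covered the mean, centring, rescaling, pseudocount, floor, library sets, library pairs, cell filters and denominators of the share. The fold changes and p-values in that table take each cell as a replicate and were not used here.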

Additional observations from a re-analysis of the deposited data

How the results depend on the processing

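No paired analysis was possible because the numbers in the labels number cells, which are not matched between fractions, and no result comes from a test; ratios within each library set stand beside the results. TPM keeps no depth, so what depth limits cannot be given. The median ratio of the members was 0.20 with a 10% trimmed mean, 0.48 with means of log2 values, 0.43 without centring, 0.19 with a pseudocount of 10 TPM, 0.34 with no floor, 0.041 without low-share cells and 0.048 in cells with a mitochondrial share of 10% to 40%. For complexes I and V the trimmed mean gave 0.15 and 0.076 and the pseudocount of 10 TPM 0.17 and 0.088. Complexes I, II, III, IV and V had 0.35, 0.45, 0.48, 0.63 and 0.50 with means of log2 values, and 0.40, 0.55, 0.46, 0.52 and 0.29 without centring. With no floor, complexes I, II, IV and V had 0.31, 0.48, 0.40 and 0.24. In cells with a share of 10% to 40% they had 0.016, 0.072, 0.0081 and 0.074, and without low-share cells complexes II and IV had 0.050 and 4.2e-05. Without library set 3, complex I had 0.14 and complex V 0.11. Complex V thus changed sign with most of these settings.

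The count of members higher was 34 with means of log2 values (45.3%, against 22% of all genes), 29 without centring (38.7% and 33.5%) and 24 with no floor (29.6% and 15.5%). It was 2 both without low-share cells (2.67%, against 10.9% of all genes) and in cells of 10% to 40% (2.67%, against 10.2%). All 10 genes called higher were among the 34, the 29 and the 24. For the 29 and the 24 this says little, as their pooled ratios could only rise. There no median, or one of 0.065 in place of 0.31, was subtracted. The count lower was 0 with a floor of 50 TPM, where 19.5% of all genes were lower. Without library sets 1, 2 and 3 it was 2, 2 and 3, against 23.0%, 21.6% and 18.1% of all genes. It was 2 without low-share cells, in cells of 10% to 40% or without the 10% of cells with the fewest genes. All genes had 13.4%, 12.3% and 19.7% lower in these settings. Cox7a2l turned to -0.11 in cells with a share of 10% to 40%. The Spearman correlation between summed and mitochondrial share was -0.62 in Ecad- and -0.84 in Ecad+ cells as a percent of all TPM. In Ecad+ cells it was -0.35, -0.072 and 0.044 without library sets 1, 2 and 3, -0.10 with mt-Atp8 left out of the share and -0.35 with the mean of log2 values of the members. The cause of these shifts was not tested. The difference in summed share kept its sign in each alternative. Of the values of single named genes under these alternatives, 540 moved by less than the SD over library sets and 135 by more. Of the named genes that were called, Cox7a2l alone changed sign, in the setting named above, while genes near 0 that were not called, such as Sdhd, also changed sign.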

Other observations

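Among subunit rows below the expression floor, Ndufa4l2, an Nduf gene known to be induced by hypoxia, was above 0 in 1 Ecad- and 2 Ecad+ cells. Atp5l2 averaged 0.878 TPM in Ecad- cells, against 0.495 TPM in Ecad+ cells, and was detected in 27 Ecad- and 28 Ecad+ cells.

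Ppargc1a, which encodes the coactivator PGC-1alpha and acts with NRF1 and GABP on genes of respiration, averaged 8.82 TPM over Ecad- cells, against 0.577 TPM over Ecad+ cells. It was above 0 in 53 of 97 Ecad- and 44 of 100 Ecad+ cells and missed the floor on its mean over all cells. Its ratio relative to the all-gene median was 2.33, with 2.43, 2.05 and 2.62 in library sets 1, 2 and 3 and 1.88 without low-share cells. The gene was picked out after its values were seen.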
